A study of Mus musculus with 20 samples.

Results

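Rbm44, Topaz1, Stk31, Ctcfl and Ctcf were followed across RNA-seq libraries of mouse embryos and embryonic stem cells that lacked or carried functional Zmym2, a zinc finger gene. The 5 genes were taken by symbol: 4 are germ cell regulators of RNA or chromatin, and Ctcf is the somatic paralog of Ctcfl. All 5 were held by each count table, among 22729 genes in embryos, 20159 in embryonic stem cells and 20142 in embryoid bodies (25199 genes over the 3 tables). The question was whether these genes were expressed at other levels where Zmym2 was mutated.

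Single whole C57BL/6 embryos at E8.5 made up the first set, 6 Zmym2-/- and 6 Zmym2+/+, each genotype being represented by 3 males and 3 females. The Zmym2-/- embryos inherited a Zmym2 frameshift allele made by editing near the start of the coding sequence. In the study most Zmym2-/- embryos looked normal at this stage, and those without a visible abnormality were used. The second set came from V6.5 embryonic stem cells (C57BL/6x129/SvJae), with 2 Zmym2-/- lines edited with the sgRNA used for the mouse and 2 control lines that received a non-target sgRNA. Each line was sequenced as mESCs on day 0, in serum and LIF, and as embryoid bodies (EBs) on day 3. Lines of 1 genotype are separate clones of 1 parental line, so that tests between them measure the spread between clones.

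In the mouse, many germ cell genes are silenced in the body by DNA methylation of their promoters, which is laid down after implantation. E-boxes and E2F sites are common in these promoters, and DNA-binding subunits of PRC1.6, a variant polycomb complex, can bind there. RBM44 is an RNA-binding protein of the intercellular bridges that join dividing male germ cells, TOPAZ1 is a germ cell protein needed for male meiosis, and STK31 couples a tudor domain with a kinase domain. CTCF organises chromatin loops and insulates genes in nearly all cells, while CTCFL (BORIS) has a closely similar zinc finger array and is normally made in the testis.

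Promoter sequences are shown so that these motifs can be looked for in them, and a match is a description only. RefSeq promoters (GRCm38.p6, 250 bases before the start, plus strand) were found for 3 of the 5 genes. Capitals mark the E-box CACGTG, the related CACGCG or its reverse complement CGCGTG, and the E2F core TCCCGC or its reverse complement GCGGGA. Both strands were searched, and no matches overlapped each other. The Stk31 window shown is the one next to the annotated gene start, at chr6:49395354-49395603, the Topaz1 window is chr9:122746949-122747198, and the Ctcf window is chr8:105636288-105636537.
Stk31: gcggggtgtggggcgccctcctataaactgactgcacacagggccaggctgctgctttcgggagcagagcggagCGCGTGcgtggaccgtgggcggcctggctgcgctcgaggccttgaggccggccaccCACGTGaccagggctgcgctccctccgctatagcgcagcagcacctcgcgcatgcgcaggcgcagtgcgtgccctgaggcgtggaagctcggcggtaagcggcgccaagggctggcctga
Topaz1: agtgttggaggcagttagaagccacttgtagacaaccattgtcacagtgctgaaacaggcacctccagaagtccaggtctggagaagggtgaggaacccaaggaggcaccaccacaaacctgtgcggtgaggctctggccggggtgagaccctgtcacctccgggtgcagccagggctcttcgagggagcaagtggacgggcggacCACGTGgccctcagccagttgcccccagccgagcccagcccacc
Ctcf: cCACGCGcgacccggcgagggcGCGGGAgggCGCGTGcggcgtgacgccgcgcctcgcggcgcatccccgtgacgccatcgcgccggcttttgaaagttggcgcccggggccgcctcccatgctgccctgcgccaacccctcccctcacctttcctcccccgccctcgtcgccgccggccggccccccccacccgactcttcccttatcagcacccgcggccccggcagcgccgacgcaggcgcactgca
Stk31 and Topaz1 each held 1 CACGTG, whose first base lay 120 and 44 bases before the start, and Ctcf held none. CACGTG was found in 6.02% of 32851 promoters of this length. Ctcf held 1 GCGGGA, a motif found in 16.9% of promoters on either strand, and 2 matches to the CACGCG motif, which was found in 7.62%. Stk31 also held 1 CGCGTG. The Ctcf window had 40 CpG dinucleotides and a GC content of 77.6%, against 26 and 71.2% for Stk31 and 8 and 62.8% for Topaz1.

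The 20 libraries held 32016880 to 64057608 counts, so that 1 CPM stood for at least 32.0 counts before TMM scaling, by which all CPM given here were adjusted. Zmym2 itself was lower in the Zmym2-/- lines, with 29.4 and 27.6 CPM in Zmym2-/- mESCs against 68.1 and 71.9 in control mESCs, and 31.9 and 30.3 CPM in Zmym2-/- EBs against 91.2 and 91.7 in control EBs. In embryos Zmym2 ranged over 25.4 to 67.1 CPM in Zmym2-/- against 50.3 to 125 CPM in Zmym2+/+, which overlap. Its log2 fold change there was -0.91 (SE 0.25, adjusted p = 0.226, edgeR). The lesion is a frameshift, so that the RNA level alone does not check the genotype. Day 3 EBs fit their label, since 7 of 7 pluripotency markers were lower and 7 of 7 early EB markers higher than in mESCs in both genotypes. All 10 markers of E8.5 tissues were detected in embryos, but 8 of them were also held by the mESC counts, so that detection alone does not check the label. Their sums spread widely, over 262 to 1399 CPM in Zmym2-/- and 395 to 3048 CPM in Zmym2+/+ embryos. The 8 markers summed to 734 to 762 CPM in control mESCs. Whether the embryos were matched in stage was not tested.

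Of the 5 genes, Rbm44 and Ctcfl rose in Zmym2-/- embryos, by 4.45-fold and 13.1-fold. In Zmym2-/- mESCs Topaz1, Stk31 and Ctcfl rose, and in Zmym2-/- EBs Stk31 and Ctcfl rose. Ctcf passed the test in none of the 3 comparisons of genotypes. A call required an adjusted p under 0.05 (Benjamini-Hochberg, over all genes of a table) in edgeR's quasi-likelihood test. The calls amounted to 0.524% of all genes for embryos, 19.2% for mESCs and 7.39% for EBs, and the calls that were higher to 0.51%, 10.3% and 4.62%. The 2 members called in embryos thus stand against a low background, the 3 members in mESCs against a much higher one.

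**Figure D1:**
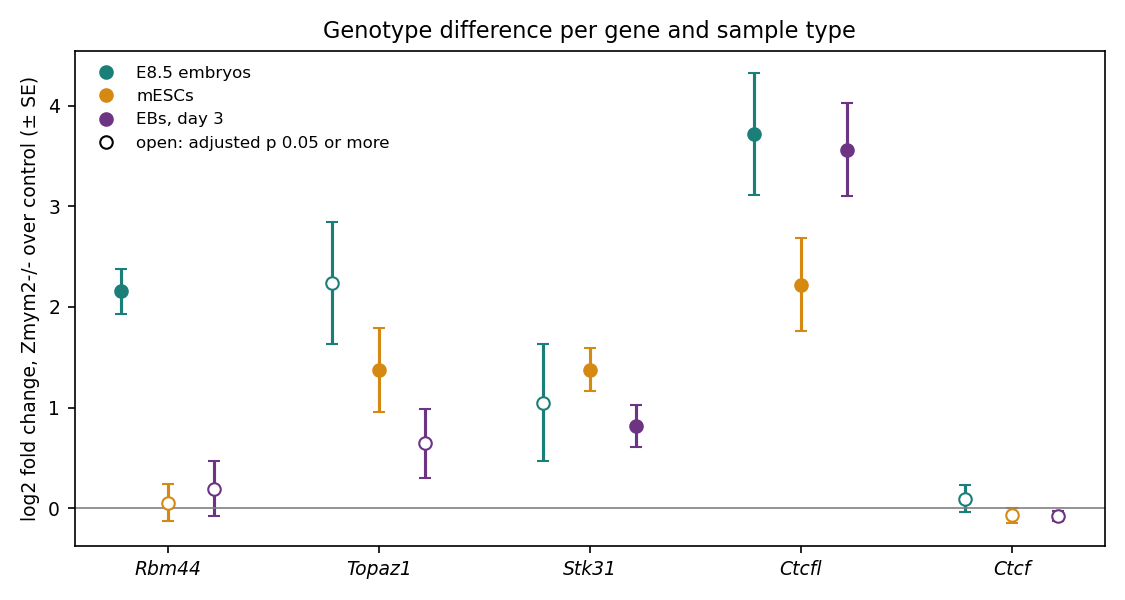
Log2 fold change of each gene, Zmym2-/- over control (± SE), in embryos, mESCs and EBs, with filled points for an adjusted p under 0.05. Ctcfl is filled in all 3 sample types (3.72, 2.22 and 3.56), Rbm44 in embryos alone (2.15), and the 3 values of Ctcf lie near 0.

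Rbm44 (ENSMUSG00000070732, chr1:91145089-91170795, plus strand, GRCm38) had 5.96, 7.96, 7.26, 7.26, 5.57 and 6.72 CPM in the 6 Zmym2-/- embryos, against 2.30, 1.82, 1.34, 1.41, 1.09 and 1.19 CPM in the 6 Zmym2+/+ embryos. All Zmym2-/- embryos were above all Zmym2+/+ embryos. The Zmym2-/- mean was 6.79 ± 0.892 CPM, against a Zmym2+/+ mean of 1.53 ± 0.455 CPM (SD, n = 6 each). The log2 fold change was 2.15 (SE 0.22), with an adjusted p of 0.000257 by edgeR, which ranked it 16 among 22729 genes. Groups that do not overlap, with Zmym2-/- higher, were seen for 1.03% of genes. With each embryo left out in turn, the log2 fold change ranged over 2.07 to 2.31 and the adjusted p over 0.000243 to 0.00137. The embryos' names carry codes that start with H or J, read here as litters, which the labels do not state. Within the J codes, 4 Zmym2-/- and 2 Zmym2+/+ embryos, the log2 fold change was 2.46 (adjusted p = 0.0234). It was 1.95 (0.353, not called) within the H codes, 2 Zmym2-/- and 4 Zmym2+/+ embryos, and 1.97 (0.188, not called) with litter fitted as a block in the 7 embryos of codes that hold both genotypes.

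In mESCs and EBs the same gene did not pass the test. It had 6.20 and 7.12 CPM in Zmym2-/- mESCs, against 6.54 and 6.30 CPM in control mESCs, and these overlap (log2 fold change 0.05, 95% interval -0.31 to 0.41, adjusted p = 0.882). EBs had 1.43 and 1.75 CPM in Zmym2-/- lines, against 1.40 and 1.37 CPM in control lines (0.19, -0.35 to 0.73, adjusted p = 0.764). The EB values did not overlap, with Zmym2-/- higher, as for 25.9% of genes. The intervals leave out a change as large as that in embryos.

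Whether the genotype difference itself differed between embryos and lines was tested in a joint edgeR fit of all 20 libraries over 17426 genes, a test chosen once the values were known. The log2 difference of Rbm44 was 2.13 larger in embryos than in mESCs (SE 0.36, adjusted p = 0.00897), where 0.706% of genes were called. That call was lost whenever 1 of the 4 mESC libraries was left out, with an adjusted p of 0.112 without Zmym2-/- line 1, 0.0738 without Zmym2-/- line 2, 0.0543 without control line 1 and 0.0832 without control line 2, at differences of 2.02 to 2.21. Against EBs the log2 difference was 1.99 (SE 0.37, adjusted p = 0.0652), not called, where 0.0574% of genes were. Embryos and lines also differ in strain, culture and deposited table, and these cannot be told apart from the sample type. No other member was called in either test (adjusted p of 0.599 or more).

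On the length-scaled RPKM of the deposited tables, which were normalized separately for embryos and lines, Rbm44 ran from 0.848 to 1.28 in Zmym2-/- embryos, from 0.924 to 1.08 in Zmym2-/- mESCs and from 0.949 to 0.992 in control mESCs. Its RPKM lay from 0.223 to 0.277 in Zmym2-/- EBs, from 0.172 to 0.328 in Zmym2+/+ embryos and from 0.212 to 0.217 in control EBs. The ranges fall into 2 sets. Zmym2-/- embryos overlap the mESCs of both genotypes, and Zmym2+/+ embryos overlap the EBs.

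**Figure D2:**
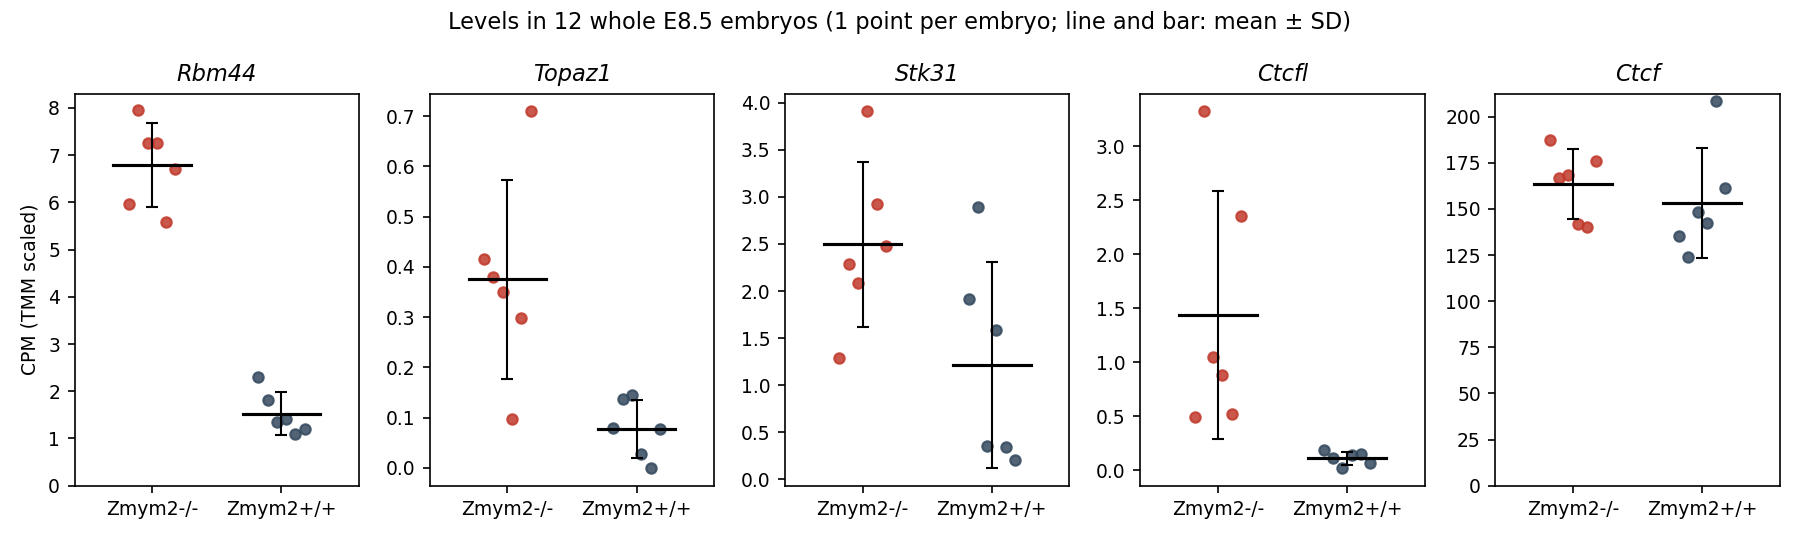
CPM of each gene in the 12 embryos, 1 point per embryo, with the mean of each genotype as a line. The genotypes do not overlap for Rbm44 (5.57 to 7.96 CPM in Zmym2-/-, 1.09 to 2.30 in Zmym2+/+) and Ctcfl (0.487 to 3.33 and 0.0206 to 0.183), and they overlap for Topaz1, Stk31 and Ctcf.

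Topaz1 (ENSMUSG00000094985, chr9:122747346-122802135, plus strand) was scarce, with 136 counts in all Zmym2-/- embryos together against 21 in the Zmym2+/+ embryos. The Zmym2-/- embryos had 0.416, 0.379, 0.350, 0.0978, 0.297 and 0.709 CPM, and the Zmym2+/+ embryos 0.0785, 0.138, 0.144, 0.0277, 0 and 0.0775 CPM. Of the Zmym2-/- embryos 5 were above all Zmym2+/+ embryos, and Zmym2-/- embryo 4 lay below Zmym2+/+ embryos 2 and 3. The log2 fold change of 2.24 (SE 0.60) was not called in edgeR's test (adjusted p = 0.209), whereas DESeq2 called it (2.29, adjusted p = 0.00880).

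In mESCs, Topaz1 had 0.945 and 1.20 CPM in the Zmym2-/- lines, against 0.429 and 0.391 CPM in the control lines, from 70 and 34 counts. Both Zmym2-/- libraries were above both controls, as they were for 30.7% of genes. It rose by 1.37 on the log2 scale (SE 0.42, adjusted p = 0.0359, edgeR). This call depended on single libraries: the adjusted p was 0.110 without Zmym2-/- line 2, 0.115 without control line 1 and 0.160 without control line 2. DESeq2 did not call it either (1.39, adjusted p = 0.143). In EBs the values were 1.10 and 1.19 CPM in Zmym2-/-, against 0.596 and 0.858 CPM in control lines, again without overlap, as for 25.9% of genes (log2 fold change 0.64, 95% interval -0.03 to 1.32, adjusted p = 0.321).

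Stk31 (ENSMUSG00000023403, chr6:49395604-49469501, plus strand) rose in the lines, where it was the most abundant of the 4 germ cell genes by RPKM in each group. Zmym2-/- mESCs had 22.0 and 14.8 CPM, against 8.43 and 5.66 CPM in control mESCs, a log2 fold change of 1.38 (SE 0.22, adjusted p = 0.000638, edgeR). Zmym2-/- EBs had 4.37 and 4.07 CPM, against 2.71 and 2.12 CPM in control EBs, a log2 fold change of 0.81 (SE 0.21, adjusted p = 0.0348). The groups did not overlap at either stage, with Zmym2-/- higher, as for 30.7% of genes in mESCs and 25.9% in EBs. The mESC call held without each library in turn (1.06 to 1.70), but limma on log2(RPKM + 1) gave an adjusted p of 0.0554. In EBs the adjusted p was 0.107 without Zmym2-/- line 1 and 0.201 without control line 2, and 0.0721 by DESeq2.

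In embryos the genotypes overlapped for Stk31. Its CPM were 1.29, 2.29, 2.08, 3.91, 2.92 and 2.48 in Zmym2-/- embryos and 1.91, 2.89, 0.350, 1.58, 0.339 and 0.201 in Zmym2+/+ embryos (log2 fold change 1.05, SE 0.58, adjusted p = 0.487). The Zmym2+/+ embryos spread widely: the 3 of codes H2121 and H2408 had 1.58 to 2.89 CPM, and the other 3, of codes J7444, H2163 and J7623, had 0.350 or less. Only H2121 holds more than 1 Zmym2+/+ embryo, so that litter and embryo cannot be told apart in this spread. Within the J codes Stk31 had 1.29 to 2.48 CPM in Zmym2-/- against 0.201 to 0.350 CPM in Zmym2+/+ embryos. Within the H codes it had 2.92 to 3.91 against 0.339 to 2.89 CPM. By edgeR the log2 fold change was 2.88 within the J codes (adjusted p = 0.103) and 1.03 within the H codes. It was 1.90 with the letter of the code as a covariate (adjusted p = 0.273), and none of these fits called it.

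Codes shared by both genotypes allow a look within them. Stk31 in H2121 had 3.91 CPM in the Zmym2-/- embryo against 1.91 and 1.58 CPM in the Zmym2+/+ embryos. It stood at 2.92 against 2.89 CPM in H2408 and at 2.48 against 0.350 CPM in J7444. For Rbm44 the same pairs were 7.26 against 2.30 and 1.41 CPM, 5.57 against 1.82 CPM and 6.72 against 1.34 CPM. The Zmym2-/- embryo was thus the higher one for both genes in every shared code, and in H2408 the Stk31 values were nearly equal. The Zmym2-/- embryos of these codes are all female. The Zmym2+/+ embryos of H2408 and J7444 are male, and those of H2121 are a male and a female. In H2408 and J7444 genotype and sex cannot be told apart, and the fit by litter below does not separate them. With litter fitted as a block in these 7 embryos, the log2 fold change of Stk31 was 1.27 (adjusted p = 0.319).

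**Figure D3:**
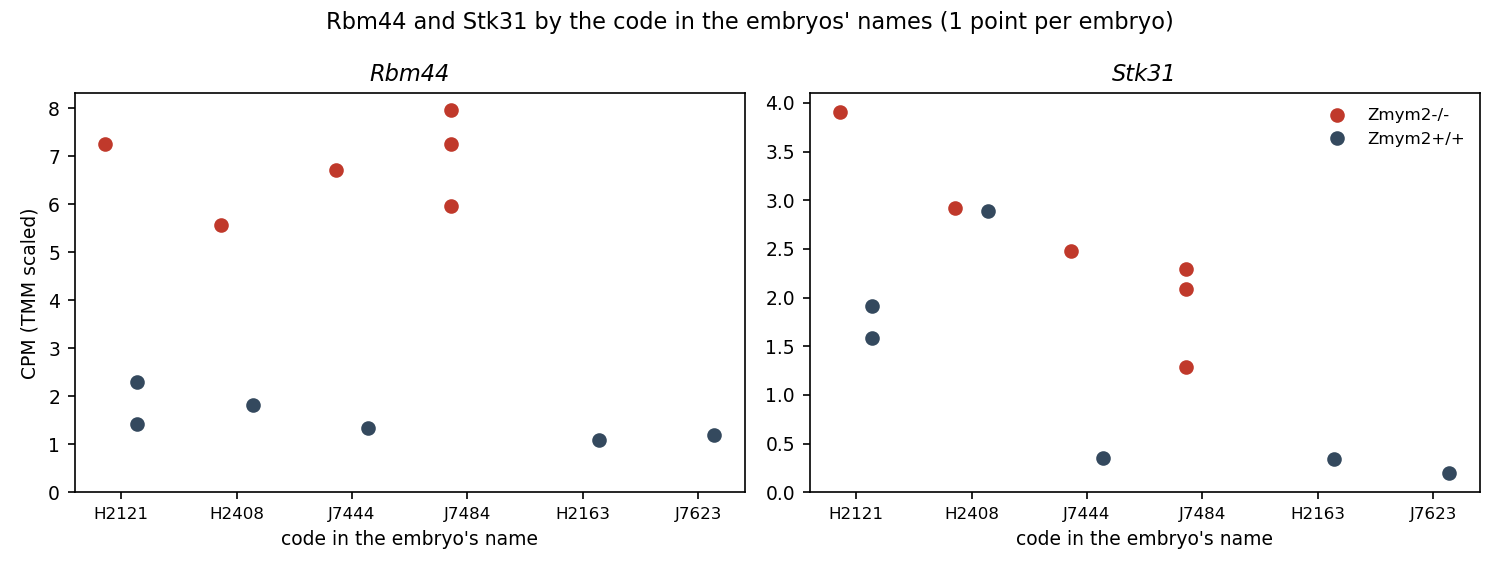
CPM of Rbm44 and Stk31 in the 12 embryos by the code in the embryo's name, with Zmym2-/- left of Zmym2+/+ within a code. Zmym2-/- Rbm44 is above Zmym2+/+ Rbm44 in each of the 3 codes that hold both genotypes, while Zmym2+/+ Stk31 runs from 0.201 CPM in J7623 to 2.89 CPM in H2408.

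Ctcfl (ENSMUSG00000070495, chr2:173093609-173119525, minus strand) was the gene of this set that rose in Zmym2-/- samples of every type. Zmym2-/- embryos had 0.487, 3.33, 1.05, 0.880, 0.520 and 2.35 CPM, against 0.183, 0.110, 0.0206, 0.139, 0.145 and 0.0620 CPM in Zmym2+/+ embryos. The genotypes did not overlap, as for 1.03% of genes with Zmym2-/- higher, and the Zmym2-/- embryos spread widely among themselves. Over the group these were 506 counts in Zmym2-/- and 27 in Zmym2+/+ embryos, at 1.44 ± 1.15 CPM on average in Zmym2-/- against 0.110 ± 0.0596 CPM in Zmym2+/+ (SD, n = 6 each). The log2 fold change was 3.72 (SE 0.61, adjusted p = 0.0108, edgeR), and with each embryo left out the adjusted p ranged over 0.00837 to 0.0389. The call was lost within the H codes (2.24, adjusted p = 0.629) and within the J codes (5.32, 0.215). With litter fitted as a block in the 7 embryos that share codes it was 3.36 (0.277), and with limma on log2(RPKM + 1) 0.47 (0.207). With the letter of the code as a covariate over all 12 embryos Ctcfl stayed called (3.58, adjusted p = 0.0475), as did Rbm44 (2.21, adjusted p = 0.000605).

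Zmym2-/- mESCs had 1.06 and 2.58 CPM of Ctcfl, against 0.408 and 0.363 CPM in control mESCs (log2 fold change 2.22, SE 0.47, adjusted p = 0.00464, edgeR). Without Zmym2-/- line 2 this was 1.46 (adjusted p = 0.0479), and limma on log2(RPKM + 0.1) did not call it (adjusted p = 0.0807). Zmym2-/- EBs had 2.34 and 2.71 CPM, against 0.0596 and 0.349 CPM in control EBs (3.56, SE 0.46, adjusted p = 0.000561). The control EBs differed from each other, and the log2 fold change was 2.84 without control line 1 and 5.33 without control line 2, called in both. No overlap was seen in either stage, as for 30.7% of genes in mESCs and 25.9% in EBs.

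Ctcflos, an antisense transcript annotated opposite Ctcfl, was read beside it. It had 11, 24, 7, 3, 2 and 25 counts in the Zmym2-/- embryos and 0 counts in all 6 Zmym2+/+ embryos, which is at least 17.4-fold higher with the Zmym2+/+ embryos set to 3 counts as a group (adjusted p = 0.0515, not called). EBs had 40 and 13 counts in Zmym2-/- and 3 and 0 in control lines, a log2 fold change of 3.68 (SE 0.87, adjusted p = 0.0231), and mESCs 8 and 7 against 1 and 1 (adjusted p = 0.0604). The kit that the study names for the embryo libraries keeps strand. The strand setting of the counting is not given in the sources used here, so that reads of the 2 transcripts may not be told apart.

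Ctcf (ENSMUSG00000005698, chr8:105636568-105682922, plus strand) had 140 to 188 CPM in Zmym2-/- embryos (median 167) and 124 to 208 CPM in Zmym2+/+ embryos (median 145). The log2 fold change was 0.09 (SE 0.13, 95% interval -0.17 to 0.35, adjusted p = 0.812, edgeR). Zmym2-/- mESCs had 189.8 and 185.6 CPM, against 195.4 and 199.8 CPM in control mESCs, a log2 fold change of -0.07 (interval -0.22 to 0.08, adjusted p = 0.569). EBs had 248.6 and 244.8 CPM in Zmym2-/- lines, against 252.1 and 269.1 CPM in control lines (-0.08, -0.18 to 0.02, adjusted p = 0.445).

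Set against Ctcf by RPKM, Ctcfl stayed a minor transcript. It made up 0.393 to 3.02% of the Ctcf RPKM in Zmym2-/- embryos (mean 1.31 ± 1.01%) and 0.0198 to 0.205% in Zmym2+/+ embryos (mean 0.111 ± 0.0663%, SD, n = 6 each). In mESCs it was 0.846 and 2.10% in Zmym2-/- against 0.315 and 0.275% in control lines, and in EBs 1.42 and 1.67% against 0.0362 and 0.196%. In bulk RNA a few cells with much Ctcfl and many cells with little cannot be told apart.

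**Figure D4:**
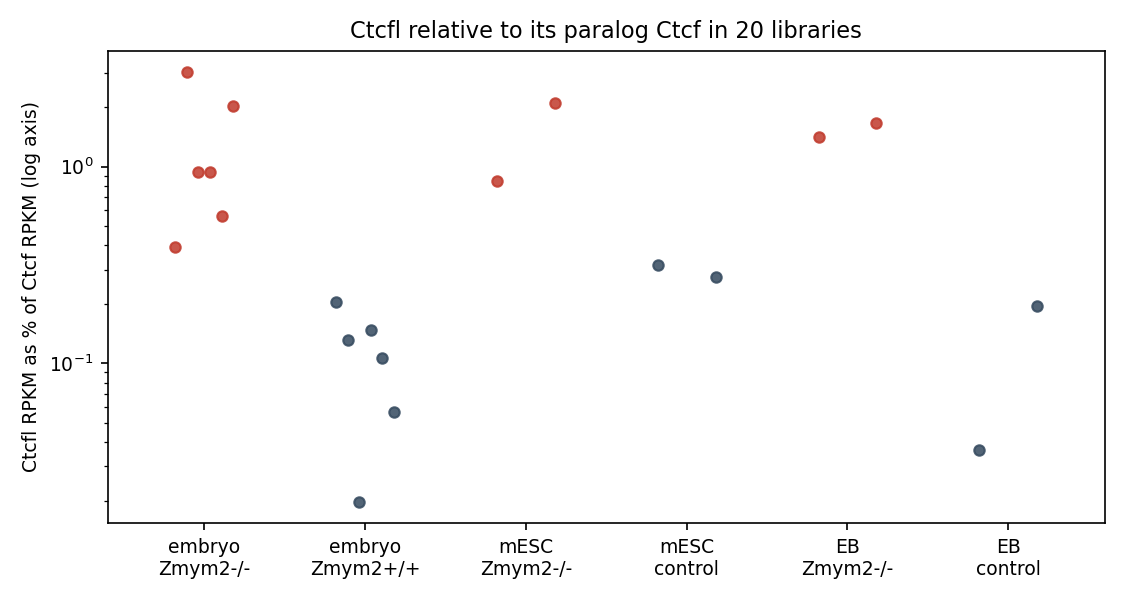
Ctcfl RPKM as a percentage of Ctcf RPKM in each of the 20 libraries, on a log axis. Zmym2-/- libraries lie between 0.393 and 3.02% and the control libraries of all sample types between 0.0198 and 0.315%.

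By RPKM, tables of embryos and lines being normalized separately, Stk31 ranged from 4.52 to 6.59 in Zmym2-/- mESCs, from 1.72 to 2.57 in control mESCs and from 1.297 to 1.37 in Zmym2-/- EBs, and each of these ranges is above the next. Zmym2-/- embryos (0.434 to 1.20), control EBs (0.662 to 0.847) and Zmym2+/+ embryos (0.063 to 0.795) followed and overlap. Ctcfl RPKM was highest in Zmym2-/- EBs (0.738 to 0.87), Zmym2-/- mESCs (0.321 to 0.796) and Zmym2-/- embryos (0.16 to 1.08), which overlap. Control mESCs (0.111 to 0.125) came next, and control EBs (0.019 to 0.11) and Zmym2+/+ embryos (0.006 to 0.053) overlap at the low end. Topaz1 RPKM was 0.219 to 0.239 in Zmym2-/- EBs and 0.179 to 0.232 in Zmym2-/- mESCs, and 0.118 to 0.17 in control EBs and 0.075 to 0.083 in control mESCs. Zmym2-/- embryos had 0.019 to 0.149 RPKM of Topaz1, which overlaps both control groups of the lines, and Zmym2+/+ embryos 0 to 0.029.

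**Figure D5:**
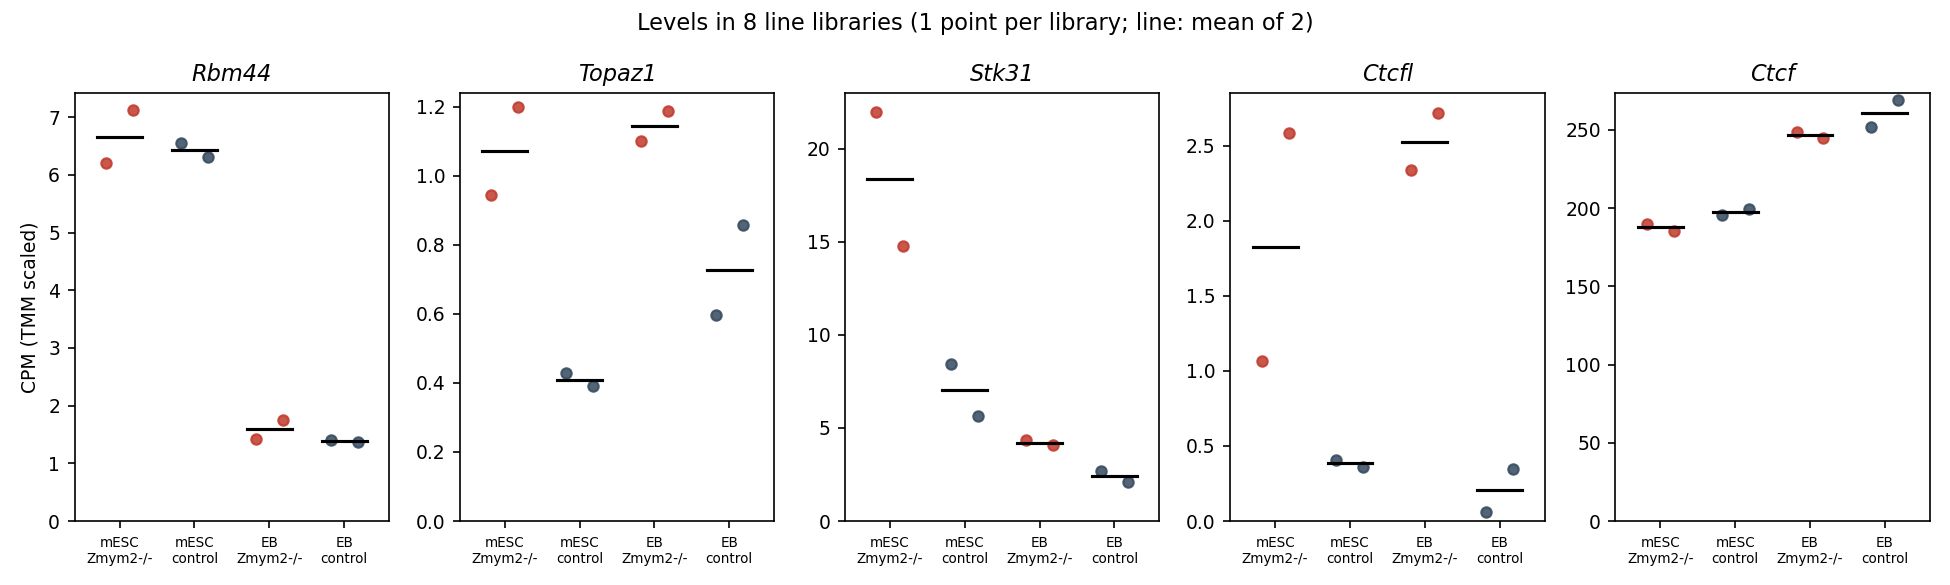
CPM of each gene in the 8 line libraries, 1 point per library and a line for the mean of 2, for mESCs and EBs of each genotype. Rbm44 is lower in EBs (1.37 to 1.75 CPM) than in mESCs (6.20 to 7.12 CPM), and Ctcfl in Zmym2-/- lines (1.06 to 2.71 CPM) is above all control libraries (0.0596 to 0.408 CPM).

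The change with differentiation was read from EBs against mESCs in a joint fit of the 8 line libraries, in which 45.2% of genes were called in Zmym2-/- and 46.6% in control lines. This fit, also used for the stage by genotype term, had a mean per group and no term for the line. The pairing of mESCs with EBs of the same line was thus not used. Rbm44 was lower in EBs, by a log2 fold change of -2.07 (SE 0.20, adjusted p = 4.01e-06) in Zmym2-/- and -2.21 (SE 0.21, adjusted p = 2.41e-06) in control lines. Stk31 was lower too, with -2.12 (SE 0.23, adjusted p = 8.84e-06) in Zmym2-/- and -1.56 (SE 0.25, adjusted p = 0.000199) in control lines. Ctcf was higher in EBs, by 0.39 in Zmym2-/- (SE 0.06, adjusted p = 0.000145) and 0.40 in control lines (SE 0.06, adjusted p = 0.000116). The shares of members called, 3 of 5 in each genotype, are not far from the background. Topaz1 and Ctcfl were not called in either genotype.

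The genotype difference was not shown to depend on the stage for any of the 5 genes. The stage by genotype term was 1.34 for Ctcfl (SE 0.80, adjusted p = 0.395), -0.73 for Topaz1 (SE 0.51, adjusted p = 0.477), -0.57 for Stk31 (SE 0.33, adjusted p = 0.392) and 0.14 for Rbm44 (adjusted p = 0.848), where 5.25% of genes were called. The sex by genotype term in embryos called no member by edgeR (0 at an unadjusted p under 0.05) or DESeq2. Stk31 had 3.10 ± 0.734 CPM in female Zmym2-/- embryos against 0.707 ± 0.759 in female Zmym2+/+ embryos, and 1.89 ± 0.529 CPM in male Zmym2-/- against 1.72 ± 1.28 in male Zmym2+/+ embryos (SD, n = 3 each). The term for Stk31 was 2.01 (SE 1.06, adjusted p = 0.284). All 3 male Zmym2-/- embryos carry the code J7484, so that sex and litter cannot be told apart here.

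Related genes were read as lists. The lists were chosen with earlier results of these data known, so that their counts and medians are a description and not a test. Of 23 other germ cell RNA regulators tested, 7 rose and 0 fell in Zmym2-/- embryos, where 0.51% of all genes rose. Their median log2 fold change was 1.25 against 0.02 over all genes. First by p among them was Mael, a piRNA pathway factor, at 3.39 CPM in Zmym2-/- against 0.145 CPM in Zmym2+/+ embryos (4.53 on the log2 scale, adjusted p = 0.000149). Tex15, another factor of transposon silencing in germ cells, had 20.9 CPM in Zmym2-/- against 5.34 CPM in Zmym2+/+ embryos (1.97, adjusted p = 0.000178), and Rbmxl2, a testis RNA-binding protein gene, 15.3 against 0.644 CPM (4.59, adjusted p = 0.000324). In mESCs 5 of 22 rose and 3 fell (median 0.14), and in EBs 12 of 23 rose and 1 fell (median 0.71), against 0.01 over all genes in each. Calls in either direction amounted to 19.2% of all genes in mESCs and 7.39% in EBs.

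Of 17 tudor domain genes, the class to which Stk31 belongs, 2 rose and 0 fell in embryos (median 0.04), where 0.51% of all genes rose. These were Rnf17, with 32.7 CPM in Zmym2-/- against 7.66 CPM in Zmym2+/+ embryos (2.09, adjusted p = 0.000142), and Tdrd1, with 5.36 against 1.27 CPM (2.08, adjusted p = 0.00445), both of germ cells. In mESCs 2 of them rose and 2 fell, a share near the 19.2% of all genes called there, and in EBs 3 rose, where 4.62% of all genes did. Genes of the intercellular bridge and midbody, where RBM44 resides, were read beside Rbm44: 0 of 12 were called in embryos by edgeR (median 0.17, 1 at an unadjusted p under 0.05), 2 fell in mESCs and 1 rose in EBs, shares near those over all genes (8.94% lower in mESCs, 4.62% higher in EBs). Tex14, a bridge component of germ cells, had 0.685 CPM in Zmym2-/- against 0.183 CPM in Zmym2+/+ embryos (1.89, adjusted p = 0.0502).

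CTCF halts cohesin on chromatin, and cohesin genes were read as 2 lists. Of 14 somatic cohesin genes and regulators 0 were called in embryos by edgeR (median 0.18, 0 at an unadjusted p under 0.05), 2 fell in mESCs and 1 rose in EBs, again near the shares over all genes. Of 4 germ cell subunits 2 rose in embryos (median 1.56), where 0.51% of all genes did: Smc1b (log2 fold change 1.95, adjusted p = 0.0303) and Rec8 (1.18, adjusted p = 0.0313). Rec8 fell in Zmym2-/- mESCs (-0.58, adjusted p = 0.00424), and Stag3, which missed the test in embryos (1.01, adjusted p = 0.272), rose in EBs (0.62, adjusted p = 0.0290). Of 8 germ cell chromatin genes tested in embryos 3 rose and 0 fell (median 1.18), against the same 0.51% of all genes. These were Morc1, Hormad2 and Brdt, at log2 fold changes of 3.84, 2.21 and 1.91 (adjusted p = 0.000257, 0.00235 and 0.0139). Of this list 3 of 9 tested rose in mESCs, where 10.3% of all genes did, and 2 of 10 tested in EBs, where 4.62% did. The list held 16 genes, and those not tested were not found by symbol in the counts of that sample type.

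Prss50 and Gal3st1, testis genes reported to need CTCFL in mouse, were not called in embryos, where Ctcfl rose (0.96, adjusted p = 0.370, and 0.30, adjusted p = 0.755). In mESCs Prss50 rose, with 10.5 CPM in Zmym2-/- against 3.52 CPM in control lines (log2 fold change 1.57, adjusted p = 0.00423), and Gal3st1 was at 1.17 (adjusted p = 0.0520). In EBs they were at 0.52 (adjusted p = 0.204) and 0.80 (adjusted p = 0.197).

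Cell type markers were read beside these results. No primordial germ cell marker of 11 was called in embryos by edgeR (2 had an unadjusted p under 0.05), their summed levels were 143 to 540 CPM in Zmym2-/- against 106 to 321 CPM in Zmym2+/+ embryos, and none was at 0 in every embryo of a group, although Prdm14 and Nanos3 were at 0 in at least 1 Zmym2+/+ embryo. Dppa3 among them had 2.75 CPM in Zmym2-/- against 0.502 CPM in Zmym2+/+ embryos (adjusted p = 0.0536). None of 10 motile cilia markers was called either (4 had an unadjusted p under 0.05), with sums of 24.8 to 161 CPM in Zmym2-/- against 16.1 to 51.6 CPM in Zmym2+/+ embryos. Of 7 early EB markers 0 were called in embryos (2 had an unadjusted p under 0.05), but all 7 had a positive log2 fold change (median 0.85 against 0.02 over all genes). Their sums were 190 to 790 CPM in Zmym2-/- against 155 to 374 CPM in Zmym2+/+ embryos. Zmym2-/- embryo 6 gave the highest sum for germ cell, cilia and early EB markers alike. The next highest Zmym2-/- sums were 321, 72.8 and 423 CPM in that order. Pou5f1, a pluripotency and germ cell marker, averaged 94.6 CPM (2.74 to 364) in Zmym2-/- against 31.7 CPM (4.28 to 61.3) in Zmym2+/+ embryos (adjusted p = 0.548). The germ cell marker Tfap2c averaged 42.2 CPM in Zmym2-/- against 83.6 CPM in Zmym2+/+ embryos, and the pluripotency marker Klf4 11.1 against 20.3 CPM. Positive log2 fold changes were seen for 9 of 11 germ cell markers (median 0.16) and 5 of 7 pluripotency markers (median 0.18) in embryos. In the lines all 6 measured 2-cell-like markers rose, with sums of 68.3 and 23.5 CPM in Zmym2-/- mESCs against 0.236 and 0.391 CPM in control mESCs, and 53.9 and 23.7 CPM in Zmym2-/- EBs against 0.0596 and 0.0268 CPM in control EBs. Zmym2-/- mESCs also had 4 of 7 pluripotency markers lower and 4 of 7 early EB markers higher. Over all genes 10.3% were called higher in mESCs, 19.2% in either direction, and 4.62% were called higher in EBs. The part of the cell types named here in the levels of the 5 genes was not tested.

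The genes next to the members were read too. Of the 20 nearest protein-coding genes, 2 on each side of each member, none was called in embryos by edgeR, Mpp6 (-0.41) and Carmil2 (0.69) having an unadjusted p under 0.05. In mESCs Lrrfip1, 16145 bases from Rbm44, fell (-0.59, adjusted p = 0.00464), as did Carmil2, 3352 bases from Ctcf (-0.88, adjusted p = 0.000185), and in EBs Lrrfip1 (-0.25, adjusted p = 0.0473) and Ripor1 (-0.36, adjusted p = 0.0107) fell. These counts are near or below the shares of all genes called.

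Genes of the most similar profile were sought by the root mean square difference of centred log2(CPM + 0.1) over the 20 libraries and 17426 genes, as a description of libraries that share genotype and depth. Hormad2, a meiotic chromosome axis gene, was nearest to Rbm44 at 0.593, followed by Ulbp1 (0.600) and Gm6723 (0.621), where the median gene was at 1.23. Since these genes were picked by likeness over the same libraries, a shared pattern follows from the choice. Hormad2 rose in embryos and was not called in mESCs (log2 fold change 0.20) or EBs (0.34). By edgeR, Ulbp1 (1.25, adjusted p = 0.0113) and Gm6723 (1.03, adjusted p = 0.0358) were called higher in mESCs. In embryos Gm6723 was called (2.22, adjusted p = 0.0346) and Ulbp1 was not (1.83, adjusted p = 0.0549). Piwil2, a piRNA-binding protein gene, was nearest to Stk31 (0.575), ahead of Naa11 (0.639) and Col17a1 (0.643). Topaz1 was nearest to Gm20541 (0.502), Caps2 (0.506) and Fam132b (0.527). Ctcfl had no neighbour as close, with Afm at 0.789, Tex15 at 0.811 and A230004M16Rik at 0.823, and Ctcf lay nearest to Prr14 (0.110), Gspt2 (0.113) and Prpf38b (0.114).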

How the data were processed

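Reads were trimmed by the authors (Trimmomatic 0.34), aligned to GRCm38, that is mm10 (STAR 2.7.8a), processed with Picard (2.9.0) and assigned to genes by HTSeq-count. The annotation and strand setting of the counting are not given in the sources used here. The deposited raw counts are whole numbers without normalization. The deposited normalized values, a score per gene and library by the authors, were not tested. RPKM were made by the authors with StringTie (1.3.5) and were used for levels between genes.

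Raw counts were tested in R (4.3.3) with edgeR (4.0.16): at least 10 summed counts, TMM scaling, the two-sided quasi-likelihood test, and Benjamini-Hochberg adjustment over all genes. Calls had an adjusted p under 0.05. The SE was taken as the absolute log2 fold change divided by the root of the F statistic, and intervals are 1.96 SE to each side. Alternatives were DESeq2 (1.42.0), limma (3.58.1) on log2(RPKM + 0.1) or log2(RPKM + 1), a filter of 1 CPM, a joint fit, blocks, the H or J codes in the embryos' names, and leaving out each library. The fits were tested on simulated data. No 2 libraries had identical counts.

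The 5 genes, the lists and the markers were chosen with earlier results of these data known. Besides the members and Zmym2, the text names the nearest genes, the 3 genes of most similar profile, and up to 3 genes per list with the smallest p in embryos, with other genes named where a count or a marker rested on them. The protein comparison of Ctcfl with Ctcf was not run here.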

Additional observations from a re-analysis of the deposited data

Results flagged for a closer look

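The genotype difference of Rbm44 differed between embryos and mESCs. In the joint edgeR fit, its log2 fold change (Zmym2-/- over control) was 2.13 larger in embryos than in mESCs (adjusted p = 0.00897), with all 6 Zmym2-/- embryos above all 6 Zmym2+/+ embryos and the mESC libraries overlapping. The test was added after the values were seen, and the call was lost in each of the 4 fits that leave out an mESC library and held in the other 16 of 20. Against EBs the difference was not called (1.99, adjusted p = 0.0652). No embryo stood apart from its group past Dixon's limit in the 14 values examined.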

How the results depend on the processing

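Of 260 member values under alternatives other than leaving out a library, 240 kept their direction and side of the threshold, 17 lost a call, 2 gained one and 1 turned sign, which was Ctcf in embryos of the H codes (-0.12). For 440 values without 1 library the counts were 415, 9, 1 and 15. Fits that leave 1 library in a group assume that it varies like the others. The causes were not tested.

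The number of members called in embryos, 2, was 3 with DESeq2 (Topaz1 added), 1 with a filter of 1 CPM (Ctcfl untested there), 1 within the J codes, 1 with limma on log2(RPKM + 1), 0 within the H codes and 0 with litter as a block over 7 embryos. In mESCs, 3 became 1 with limma on log2(RPKM + 0.1) and 0 on log2(RPKM + 1). In EBs, 2 became 1 with DESeq2, the joint fit and both limma settings, each time without Stk31. Embryos against EBs went to 1 with DESeq2, against 0. Without 1 library the number was 2 in all embryo fits, 2 to 3 in mESCs, 1 to 2 in EBs, 0 to 1 for embryos against mESCs and 0 to 1 against EBs.

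Replicate numbers did not pair the samples, with correlations of deviations from -0.468 to 0.405 in embryos, -0.0432 in mESCs and -0.0486 in EBs. With the replicate block, 1 member was called in embryos, Rbm44 (2.19, adjusted p = 0.0104), and Ctcfl was not (3.47, adjusted p = 0.151).

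Signs turned without 1 library for values near 0: Rbm44 in mESCs (-0.042 to 0.15), Topaz1 (-0.069 to 0.27) and Ctcfl (-0.037 to 1.24) in Zmym2-/- EBs against mESCs, the stage terms of Ctcf (-0.031 to 0.043) and Rbm44 (-0.0045 to 0.29), the sex term of Ctcfl (-1.34 to 0.58), Ctcfl in embryos against EBs (-1.59 to 0.90) and Stk31 in embryos against mESCs (-0.62 to 0.17).

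All genes called higher in embryos numbered 116 by edgeR, 335 by DESeq2, 68 with the 1 CPM filter, 49 with the block, 46 within the J codes, 1 within the H codes and 1 with litter. In mESCs these were 2068, against 1194 and 911 by limma, and in EBs 931, against 288 and 113. The sex term called 0 genes by edgeR (2733 higher and 2334 lower at an unadjusted p under 0.05) and 1332 higher by DESeq2.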

Other observations

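The list of germ cell RNA regulators other than the 5 genes was chosen with earlier results of these data known. Of its genes 12 of 23 rose in Zmym2-/- EBs, where 4.62% of all genes did. In Zmym2-/- mESCs 5 of 22 rose, where 10.3% of all genes did. The stage by genotype term, called for 5.25% of all genes, was tested for 22 of them. It was called higher for 5 (Ddx4, Dazl, Piwil2, Mov10l1 and Tex15, named after their values were seen) and lower for 0. Mov10l1, a piRNA helicase gene, had 9.69 CPM in Zmym2-/- against 4.72 CPM in control EBs (log2 fold change 1.04, adjusted p = 0.00126, edgeR), and 9.14 CPM in Zmym2-/- against 12.2 CPM in control mESCs (-0.42, adjusted p = 0.0713). Its stage term was 1.46 (adjusted p = 0.00138). Fkbp6, a chaperone gene of the piRNA pathway, rose at both stages, to 6.43 CPM in Zmym2-/- against 0.593 CPM in control EBs (3.41, adjusted p = 3.35e-05) and to 22.8 CPM in Zmym2-/- against 1.44 CPM in control mESCs (3.99, adjusted p = 1.17e-07).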
